A study of Homo sapiens with 4 samples.

Results

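The G2/M and mitosis genes are 44 genes that act as cells enter, pass through and leave mitosis: cyclins and their kinase, mitotic kinases, regulators of anaphase, kinetochore and spindle proteins, kinesins and condensin subunits. They were defined as the probe sets of an Affymetrix array annotated to exactly 1 of these genes. All 44 genes were found, with 68 of the 19064 single-gene probe sets on the array. RNA came from BJ-TE, an established line made from human foreskin fibroblasts of the BJ strain, on 4 arrays. Cells at 100% confluence carried a hairpin RNA (shRNA) that targets p73, a transcription factor of the p53 family (1 array), or the control hairpin labelled ns (1 array). Cells at 40% confluence carried the same p73 shRNA (1 array) or ns shRNA (1 array). All cells thus came from 1 line and carried a hairpin, and no group had a replicate. The study's title names p73 and malignant transformation.

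In dividing cells the transcripts of these genes are low after division, accumulate from S phase and peak in G2 and mitosis. Cyclin B with the kinase CDK1 drives entry into mitosis, Polo-like and Aurora kinases build the spindle, and the anaphase-promoting complex with its activator CDC20 then destroys cyclin B. Many of their promoters carry CCAAT boxes, bound by NF-Y, and a cell cycle homology element, through which the DREAM complex silences them in resting cells and B-MYB and FOXM1 activate them in G2. In normal fibroblasts these genes are known to fall when cells stop dividing at confluence. BJ-TE is an established line and may differ from normal fibroblasts here. Whether DREAM silencing is intact in BJ-TE, and whether its cells stop dividing at confluence, was not tested. In bulk RNA a smaller share of cells in G2 or mitosis and less RNA per such cell cannot be told apart.

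Each probe set has 1 intensity per array, in arbitrary units, and arrays had been scaled to 2% trimmed means of 500.1 to 500.2. The probe set of the hairpin's target TP73 had intensities of 2.04 (p73 shRNA) and 1.65 (ns shRNA) at 100% confluence and of 2.09 (p73 shRNA) and 1.68 (ns shRNA) at 40%, far below the brightness filter of 111, so it does not check the labels. Above the filter were 14 of 14 fibroblast markers, 0 of 8 epithelial, 0 of 5 endothelial and 0 of 4 blood markers found on the array. The 99th percentile of intensity was 13157 on the p73 shRNA array at 40% and 10196 to 11420 on the others. The median over control probe sets for ribosomal RNA reached 699 in ns shRNA cells at 40%, where the remaining arrays had 279 to 348. Beta-actin's ratio of 3' over 5' signal, a measure of RNA integrity, was 1.38 (p73 shRNA) and 1.47 (ns shRNA) at 100%, against 1.09 (p73 shRNA) and 1.24 (ns shRNA) at 40%. For GAPDH the same ratio was 1.02 (p73 shRNA) and 1.02 (ns shRNA) at 100%, against 0.98 (p73 shRNA) and 0.93 (ns shRNA) at 40%. The part of these array differences in the results below was not tested.

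All 44 genes, each by its brightest probe set, were above the filter. On each array 43 of them were brighter than the 75th percentile of all probe sets without controls. That percentile was 528 to 563, below the median of 606 to 634 over all genes above the filter. Among those genes the members ranked at a median brightness percentile of 86.7, with the lowest at 36.2. The median intensity over the 44 genes was 2662 (p73 shRNA) and 2460 (ns shRNA) at 100% confluence, against 2294 (p73 shRNA) and 2444 (ns shRNA) at 40%. Signal of mitotic genes was thus plain on all 4 arrays, those of confluent cells included. Intensities of different genes come from different probes and are not set against each other.

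**Figure D1:**
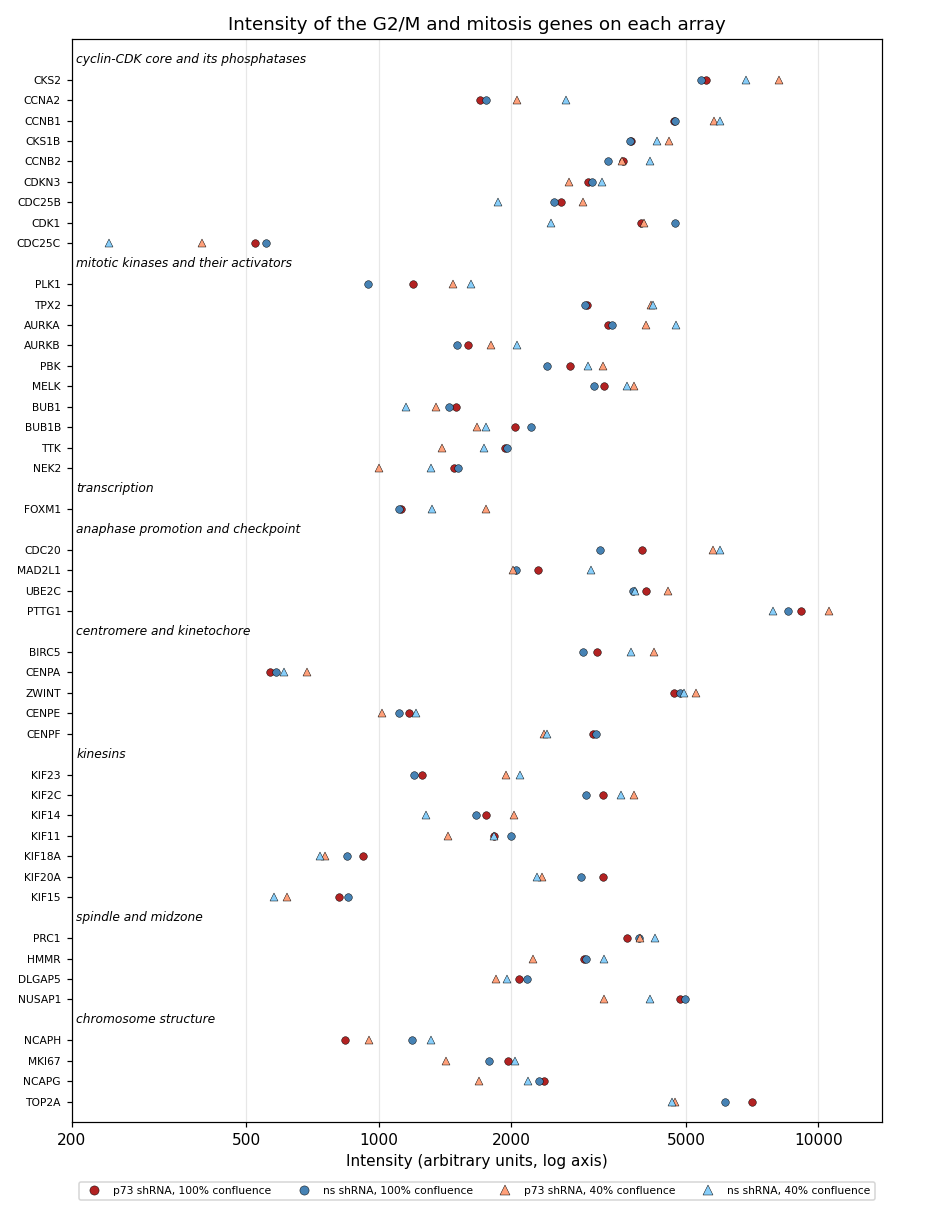
Intensity of each of the 44 genes (arbitrary units, log axis) on the 4 arrays, grouped by role; circles are cells at 100% confluence and triangles cells at 40%, with p73 shRNA in reds and ns shRNA in blues. Both circles lie left of both triangles for 18 genes (30.8% of all genes) and right of them for 14 (33.7% of all genes). Levels compare between arrays, not between genes.

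Cells at 100% confluence were compared with cells at 40%, with the hairpins as the only repeats, to see how the mitotic genes differ between the stages that the design names. Of all genes tested, 20.4% were called higher and 16.1% lower at 100% confluence. Near these shares, 8 of the 44 genes rose, 9 fell and 27 did not pass the test, so the list did not move as a block. Those that fell were CDC20, KIF23, PLK1, TPX2, CKS2, FOXM1, CCNA2, BIRC5 and AURKA; those that rose were CDC25C, TOP2A, KIF15, CDK1, NUSAP1, KIF20A, NEK2 and CENPF. All changes were small. The furthest average, that of CDC25C, was 1.70-fold, and 0 of the 44 genes were 2-fold changed with both hairpins, against 4.54% of all genes. The median log2 ratio of the 44 was -0.13 with p73 shRNA and -0.10 with ns shRNA, against 0.02 and 0.01 over all genes with the same hairpins. The median of the 44 averages was -0.07, against 0.01 over all genes and -0.03 over the 4315 genes at least as bright as the dimmest member. After quantile normalization it was 0.00826, against -0.01 over all genes, so its direction is not settled.

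The test was limma's additive model of confluence and hairpin on log2(intensity + 11.5), with Benjamini-Hochberg adjustment over 6759 genes and a threshold of 0.05. It called 36.6% of all genes, 20.4% higher and 16.1% lower, so the 17 called members (38.6%) are near that background. Both arrays at 100% lay below both at 40% for 18 members (30.8% of all genes did so) and above them for 14 (33.7% of all genes). Such separation, given for single genes below, was thus common among all genes. Error here comes from the average spread at a gene's brightness. Without that intensity trend limma called 6 members, against 30.6% of all genes: CDC20, KIF23, PLK1 and TPX2 fell (12.3% of all genes fell) and CDC25C and TOP2A rose (18.3% of all genes rose). With 3 arrays at a time and no hairpin term, limma called 14 members without the ns shRNA array at 40% (33.1% of all genes) and 11 without the p73 shRNA array at 40% (23.8% of all genes). It called 0 without the ns shRNA array at 100% (7.87% of all genes, and 4 members at an unadjusted p below 0.05) and 1, CDC20, without the p73 shRNA array at 100% (9.6% of all genes). The same model on all 4 arrays called 4 members and 19.9% of all genes.

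**Figure D2:**
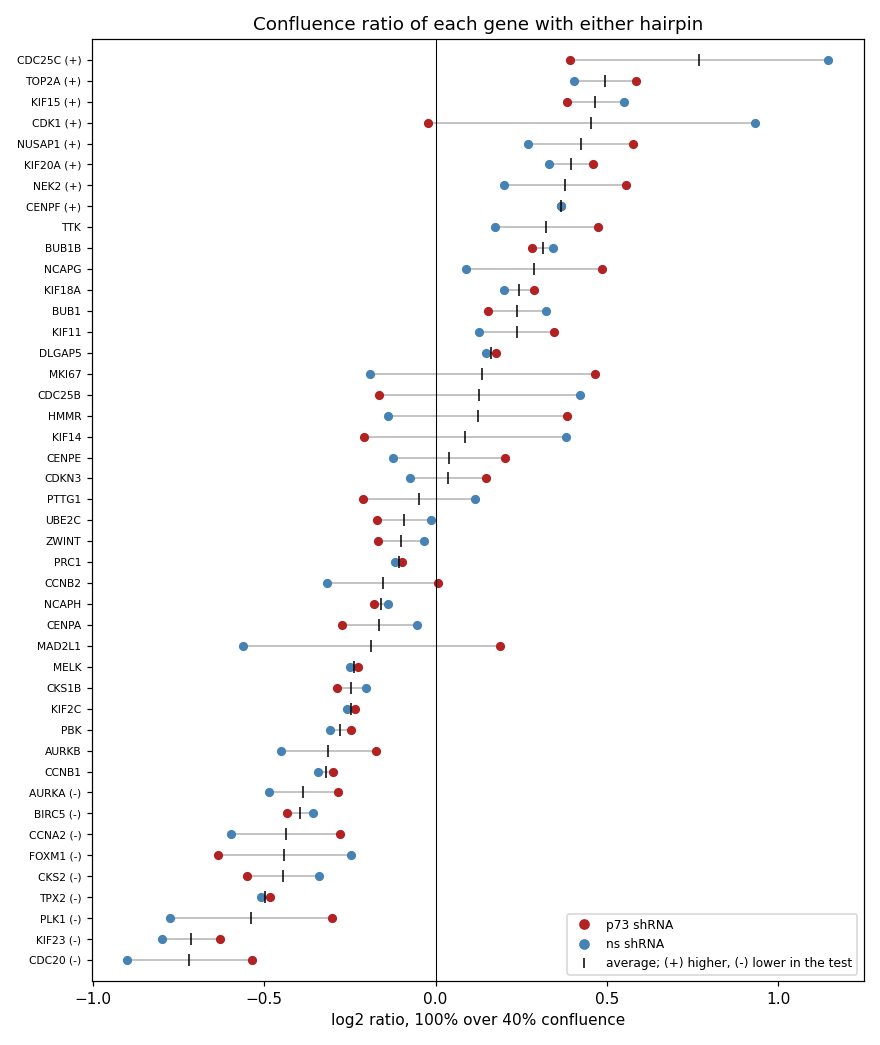
log2 ratio of 100% over 40% confluence for each gene with p73 shRNA (red) and ns shRNA (blue); the tick is their average, and (+) or (-) marks genes called higher or lower. The averages run from 0.77 for CDC25C to -0.72 for CDC20, and 34 of the 44 genes have the same sign with both hairpins.

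The counts of role groups, here and below, stand beside 20.4% of all genes called higher and 16.1% called lower. Among the regulators of anaphase, 1 of 4 fell and 3 did not pass. CDC20, which activates the anaphase-promoting complex, had intensities of 3965 (p73 shRNA) and 3195 (ns shRNA) at 100% confluence, against 5758 (p73 shRNA) and 5976 (ns shRNA) at 40%. Both arrays of confluent cells were below both arrays at 40%. Its average log2 ratio was -0.72 (SE 0.14, limma adjusted p 3.05e-06, and 0.00625 without the trend). UBE2C, the ubiquitin-conjugating enzyme that works with the same complex, had ratios of -0.17 with p73 shRNA and -0.01 with ns shRNA. PTTG1, the securin that holds separase inactive until anaphase, had -0.21 and 0.11 with the same hairpins. The spindle checkpoint protein MAD2L1 had 2300 (p73 shRNA) and 2055 (ns shRNA) at 100%, against 2019 (p73 shRNA) and 3043 (ns shRNA) at 40%. Only the ns shRNA array at 40% stood apart for MAD2L1, and its groups overlapped.

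Of the 10 mitotic kinases and their activators, 3 fell and 1 rose. PLK1, the Polo-like kinase, had 1195 (p73 shRNA) and 944 (ns shRNA) at 100%, against 1476 (p73 shRNA) and 1624 (ns shRNA) at 40%. The groups did not overlap, and the average was -0.54 (SE 0.16, limma adjusted p 0.00309, and 0.035 without the trend). TPX2, which activates Aurora A on spindle microtubules, had 2978 (p73 shRNA) and 2947 (ns shRNA) at 100%, against 4172 (p73 shRNA) and 4200 (ns shRNA) at 40%. The hairpins were almost equal at either stage, and the average was -0.50 (SE 0.14, limma adjusted p 0.00233, and 0.04 without the trend). AURKA itself fell by its brightest probe set, with 3318 (p73 shRNA) and 3385 (ns shRNA) at 100%, against 4047 (p73 shRNA) and 4747 (ns shRNA) at 40%; the average was -0.39 (limma adjusted p 0.0207, and 0.107 without the trend). AURKB, the kinase of the chromosomal passenger complex, averaged -0.31 (limma adjusted p 0.0903) and was lower with both hairpins.

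The kinase that rose was NEK2, which acts in centrosome separation, with 1480 (p73 shRNA) and 1515 (ns shRNA) at 100%, against 1003 (p73 shRNA) and 1317 (ns shRNA) at 40%. Its average was 0.38 (limma adjusted p 0.0444, and 0.12 without the trend). With no hairpin term it was 0.57 without the ns shRNA array at 40% and 0.18, not called, without the p73 shRNA array at 40%. The checkpoint kinases TTK and BUB1B averaged 0.32 (limma adjusted p 0.0788) and 0.31 (limma adjusted p 0.0859), and BUB1 averaged 0.24; none of these passed. PBK and MELK, kinases found in proliferating cells, averaged -0.28 and -0.24 and did not pass either.

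In the core of cyclins, CDK1, its phosphatases and its small binding proteins, 2 of 9 fell and 2 rose. The small CDK-binding protein CKS2 had 5541 (p73 shRNA) and 5410 (ns shRNA) at 100%, against 8125 (p73 shRNA) and 6850 (ns shRNA) at 40%. CCNA2, the cyclin of S phase and G2, had 1698 (p73 shRNA) and 1758 (ns shRNA) at 100%, against 2062 (p73 shRNA) and 2667 (ns shRNA) at 40%. For both genes the confluent arrays were close to each other and below the arrays at 40%, with averages of -0.45 for CKS2 (limma adjusted p 0.00523) and -0.44 for CCNA2 (limma adjusted p 0.0121); without the trend the limma adjusted p was 0.0651 and 0.0726. CCNA2 averaged -0.25, not called, without the ns shRNA array at 40% and with no hairpin term. CCNB1, cyclin B1, had 4703 (p73 shRNA) and 4712 (ns shRNA) at 100%, against 5793 (p73 shRNA) and 5978 (ns shRNA) at 40%, an average of -0.32 that just missed the threshold (limma adjusted p 0.0537). CCNB2 averaged -0.16, the CKS2 paralogue CKS1B -0.25 and the CDK1-directed phosphatase CDKN3 0.04, and none of these passed.

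CDC25C, a phosphatase that activates CDK1, had the highest average of the 44, with 522 (p73 shRNA) and 552 (ns shRNA) at 100%, against 395 (p73 shRNA) and 243 (ns shRNA) at 40%. Its groups did not overlap, and the average was 0.77 (SE 0.20, limma adjusted p 0.000712, and 0.0072 without the trend). With no hairpin term it was 0.43 without the ns shRNA array at 40% (limma adjusted p 0.107), below NUSAP1 at 0.60, and 1.11 without the p73 shRNA array at 40% (limma adjusted p 0.00327). CDC25C was also the dimmest member by its mean over the arrays. CDK1 was called higher, with an average of 0.45 (limma adjusted p 0.00568, and 0.111 without the trend), but its arrays did not separate by stage: it had 3947 (p73 shRNA) and 4725 (ns shRNA) at 100%, against 4012 (p73 shRNA) and 2472 (ns shRNA) at 40%. By this brightest probe set the ns shRNA array at 40% alone was low, and the ratio was -0.02 with p73 shRNA and 0.93 with ns shRNA. The other probe sets of CDK1 did not show this. One had ratios of -0.17 (p73 shRNA) and -0.07 (ns shRNA), the other 0.27 (p73 shRNA) and 0.10 (ns shRNA). With no hairpin term the limma adjusted p for CDK1 was 0.174 on 4 arrays, 0.602 without the ns shRNA array at 40% and 0.00346 without the p73 shRNA array at 40%. CDC25B, another CDK-activating phosphatase, showed the same low ns shRNA array at 40% (2601 with p73 shRNA and 2502 with ns shRNA at 100%, against 2918 with p73 shRNA and 1866 with ns shRNA at 40%) and was not called.

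FOXM1, the forkhead factor that activates many genes of this list in G2, fell. It had 1122 (p73 shRNA) and 1110 (ns shRNA) at 100%, against 1750 (p73 shRNA) and 1320 (ns shRNA) at 40%. The confluent arrays were almost equal, and the average was -0.44 (SE 0.16, limma adjusted p 0.0172, and 0.0735 without the trend). Without the p73 shRNA array at 40% and with no hairpin term FOXM1 averaged -0.24 and was not called (limma adjusted p 0.276).

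Of the 7 kinesins 2 were called higher and 1 lower, and 4 did not pass. Without the trend 0 were called higher and 1 lower. KIF23, the kinesin of the central spindle in cytokinesis, had 1256 (p73 shRNA) and 1202 (ns shRNA) at 100%, against 1948 (p73 shRNA) and 2098 (ns shRNA) at 40%. The groups were well apart, with an average of -0.71 (SE 0.15, limma adjusted p 3.04e-05, and 0.0056 without the trend). KIF20A, which also acts in cytokinesis, had 3235 (p73 shRNA) and 2890 (ns shRNA) at 100%, against 2348 (p73 shRNA) and 2297 (ns shRNA) at 40%, and rose by 0.40 (limma adjusted p 0.0212, and 0.0969 without the trend). KIF15, a motor of the bipolar spindle, had 810 (p73 shRNA) and 851 (ns shRNA) at 100%, against 619 (p73 shRNA) and 578 (ns shRNA) at 40%, and rose by 0.47 (limma adjusted p 0.0248, and 0.0539 without the trend). The groups overlapped for neither of them. KIF2C, a microtubule depolymerase, averaged -0.25, KIF14 0.09, the spindle motor KIF11 0.24 and KIF18A, which limits chromosome oscillation, 0.24; these did not pass.

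Of the centromere and kinetochore genes 1 of 5 fell and 1 rose. BIRC5, survivin, a subunit of the passenger complex, had 3133 (p73 shRNA) and 2918 (ns shRNA) at 100%, against 4234 (p73 shRNA) and 3745 (ns shRNA) at 40%, with an average of -0.40 (limma adjusted p 0.0181). CENPF, a large protein of the outer kinetochore, had 3068 (p73 shRNA) and 3120 (ns shRNA) at 100%, against 2376 (p73 shRNA) and 2417 (ns shRNA) at 40%, with an average of 0.37 (limma adjusted p 0.0331). Neither call held without the trend, where the limma adjusted p was 0.0955 for BIRC5 and 0.12 for CENPF. The arrays of both genes separated by stage, BIRC5 as 30.8% of all genes did and CENPF as 33.7% did. The centromeric histone CENPA averaged -0.16, the kinetochore motor CENPE 0.04 and ZWINT -0.10, and none passed.

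Chromosome structure and spindle genes held the remaining 2 calls, both higher. TOP2A, the topoisomerase that untangles sister chromatids, had 7077 (p73 shRNA) and 6139 (ns shRNA) at 100%, against 4718 (p73 shRNA) and 4636 (ns shRNA) at 40%. The average was 0.49 (SE 0.14, limma adjusted p 0.00189, and 0.0427 without the trend). NUSAP1, which bundles spindle microtubules, had 4847 (p73 shRNA) and 4986 (ns shRNA) at 100%, against 3248 (p73 shRNA) and 4132 (ns shRNA) at 40%, and rose by 0.42 (limma adjusted p 0.00985, and 0.0824 without the trend). Without the p73 shRNA array at 40% and with no hairpin term NUSAP1 averaged 0.25 and was not called. For TOP2A and NUSAP1 both confluent arrays were above both at 40%. The proliferation marker MKI67 had 1967 (p73 shRNA) and 1781 (ns shRNA) at 100%, against 1422 (p73 shRNA) and 2036 (ns shRNA) at 40%, so its groups overlapped, and its average of 0.14 did not pass (limma adjusted p 0.512). The condensin subunits NCAPG and NCAPH averaged 0.29 and -0.16, the midzone protein PRC1 -0.11, and the spindle proteins HMMR and DLGAP5 0.12 and 0.16, none of which passed.

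The 14 genes with more than 1 probe set show how far a value depends on the probes. Both probe sets of TOP2A (0.49 and 0.47), both of CCNA2 (-0.44 and -0.63) and all 3 of BIRC5 (-0.40, -0.57 and -0.77) moved the same way, and each passed in a fit with every probe set as a feature. CENPF had 2 probe sets above the filter, both called higher (0.37 and 0.75). Those of CDK1 averaged 0.45, 0.19 and -0.12, and only the first was called; those of AURKA above the filter averaged -0.39 and -0.12, and only the first was called. For NEK2 they averaged 0.38 and 0.10, again with only the first called. The same held for CDC25C (0.77 and 0.54 above the filter) and NUSAP1 (0.42 and 0.30). BUB1 had 5 probe sets, of which the 2 above the filter averaged 0.24 and -0.26 and did not pass, so its direction is not settled. In that fit 10 of the 62 member probe sets above the filter rose and 12 fell, against 19.6% and 15.7% of all probe sets (35.3% in either direction). When probe sets were averaged instead of taking the brightest, 13 of 43 members were called, against 32.2% of all genes. CDC25C was then below the filter and not tested.

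**Figure D3:**
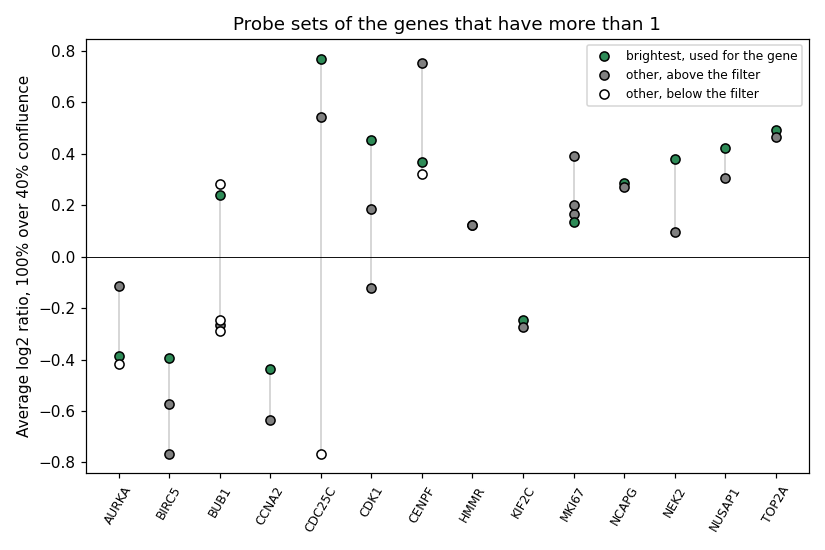
Average log2 ratio of 100% over 40% confluence for each probe set of the 14 genes with more than 1; green is the brightest probe set, used for the gene, grey the others above the brightness filter, and white those below it. TOP2A, CCNA2 and BIRC5 stay on 1 side of 0, while CDK1, BUB1 and CDC25C have probe sets on both sides, for CDC25C only through one below the filter.

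Promoters are shown for the genes called in both versions of the test that have an entry in the RefSeq promoter table (GRCh38.p14) with a match. Among these genes TOP2A rose and 3 fell. CDC25C, also called higher in both versions, had no match at its first listed start and was left out. All printed promoters thus hold a match by choice. Each is the 250 bases before the start site, 5' to 3' on the gene's strand; capitals mark CCAAT and TTTGAA, the core of the cell cycle homology element, or their reverse complements ATTGG and TTCAAA.
CDC20 (chr1:43358731-43358980, + strand): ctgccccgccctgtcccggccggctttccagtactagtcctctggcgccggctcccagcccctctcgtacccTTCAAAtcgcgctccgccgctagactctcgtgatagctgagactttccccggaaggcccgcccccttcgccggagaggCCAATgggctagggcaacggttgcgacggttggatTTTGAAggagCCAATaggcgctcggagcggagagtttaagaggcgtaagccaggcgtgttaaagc
KIF23 (chr15:69414099-69414348, + strand): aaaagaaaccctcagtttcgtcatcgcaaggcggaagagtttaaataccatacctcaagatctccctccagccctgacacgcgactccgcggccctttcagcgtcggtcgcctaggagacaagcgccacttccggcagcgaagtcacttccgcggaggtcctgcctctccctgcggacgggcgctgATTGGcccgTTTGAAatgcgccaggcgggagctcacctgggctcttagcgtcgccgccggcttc
PLK1 (chr16:23678639-23678888, + strand): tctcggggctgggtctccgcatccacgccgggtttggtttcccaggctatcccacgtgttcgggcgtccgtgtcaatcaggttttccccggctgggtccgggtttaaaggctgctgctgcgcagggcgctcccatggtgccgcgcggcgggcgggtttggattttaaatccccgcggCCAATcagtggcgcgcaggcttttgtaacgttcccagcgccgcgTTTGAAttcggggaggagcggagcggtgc
TOP2A (chr17:40417897-40418146, - strand): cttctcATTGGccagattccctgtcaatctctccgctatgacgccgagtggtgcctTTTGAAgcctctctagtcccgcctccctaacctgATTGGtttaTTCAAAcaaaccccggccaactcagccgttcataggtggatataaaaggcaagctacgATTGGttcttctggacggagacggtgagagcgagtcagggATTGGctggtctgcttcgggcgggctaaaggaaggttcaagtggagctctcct

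CCAAT or ATTGG occurred in 29 of the 37 members found in the table (78.4%), against 33.0% of 27305 promoters, 1 per gene, and 36.8% of those of genes above the brightness filter. TTTGAA or TTCAAA occurred in 20 of the 37 (54.1%), against 13.6% of all promoters and 8.22% of those of genes above the filter. Both occurred together in 17 (45.9%), against 4.85% of all promoters. The motifs do not overlap in letters. In CDC20 a CCAAT begins 55 bases before the start and a TTTGAA 65 before it, and in PLK1 they begin 73 and 29 bases before it. In KIF23 an ATTGG begins 64 bases and a TTTGAA 55 bases before the start, and TOP2A has 4 ATTGG, with a TTTGAA and a TTCAAA.

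Members that rose and members that fell both held these letters. CCAAT or ATTGG was found in 6 of 8 that rose, 5 of 5 with an entry that fell and 18 of 24 that were not called. TTTGAA or TTCAAA was found in 3 of 8, 4 of 5 and 13 of 24 of the same groups. CDC25C had neither at its first listed start, while 2 of its other 3 listed starts held CCAAT or ATTGG and 1 of these also held TTTGAA or TTCAAA. These matches are letters in a window and not shown sites. AURKA, BIRC5, FOXM1, PBK, TPX2, TTK and UBE2C were not matched in the table.

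Other genes of the cell cycle were taken from lists chosen with earlier results of these data known. Their counts stand beside the 20.4% of all genes called higher and the 16.1% called lower, or 18.3% and 12.3% without the trend. Among 10 genes that control G2/M entry, 2 rose and 3 fell at 100% confluence. CDKN1A, the inhibitor p21, had 813 (p73 shRNA) and 681 (ns shRNA) at 100%, against 191 (p73 shRNA) and 197 (ns shRNA) at 40%, an average of 1.88 (limma adjusted p 1.67e-18). The inhibitor CDKN1B averaged 0.46 (limma adjusted p 0.00837, and 0.0597 without the trend). GADD45A, a stress protein that can inhibit CDK1, averaged -1.66, the phosphatase CDC25A -1.36 and the CDK1-inhibiting kinase PKMYT1 -0.65, and all 3 passed. These log2 ratios of CDKN1A, GADD45A and CDC25A are larger in size than that of any of the 44 members.

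Of 14 regulators of the DREAM and MYB-MuvB complexes, 1 rose and 3 fell with the trend. Without it 4 rose and 1 fell, beside 18.3% and 12.3% of all genes, so the balance of this list depends on the error model. RBL2, the pocket protein p130 of the repressing complex, had 948 (p73 shRNA) and 864 (ns shRNA) at 100%, against 409 (p73 shRNA) and 509 (ns shRNA) at 40%, an average of 0.97 (limma adjusted p 7.32e-07). MYBL2, the activator B-MYB, had 444 (p73 shRNA) and 720 (ns shRNA) at 100%, against 954 (p73 shRNA) and 975 (ns shRNA) at 40%, an average of -0.76 (limma adjusted p 0.000102). Both separated the stages. Whether these complexes work in BJ-TE as they do in normal fibroblasts was not tested. The E2F partner TFDP1 averaged -0.47 and the repressor-type E2F4 -0.46, and both passed with the trend only. RBL1, the pocket protein p107, averaged 0.48, the E2F partner TFDP2 0.48 and the repressor E2F8 0.52, and these passed only without the trend (limma adjusted p 0.049, 0.0488 and 0.0433).

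Condensin and cohesin genes had 4 of 12 higher and 0 lower, but only STAG2 passed without the trend, where SMC3, RAD21 and NCAPG2 did not. STAG2, a cohesin subunit, averaged 0.77 (limma adjusted p 2.35e-06) and SMC3, of the cohesin ring, 0.51. The SMC3 ratio was 1.01 with p73 shRNA and -0.00 with ns shRNA, so that call rests on the p73 shRNA arrays. Other kinetochore and checkpoint genes had 1 of 12 higher (CENPU) and 3 lower (CENPM, BUB3 and CENPN). Without the trend CENPU did not pass and CENPC did, as higher, while the 3 lower calls held. The CENPM ratio was -1.12 with p73 shRNA and -0.16 with ns shRNA, so its call rests mostly on the p73 shRNA arrays. The passenger subunit CDCA8 was the 1 of 4 cytokinesis genes that fell, by an average of -0.98 (limma adjusted p 1.92e-09), and UBE2S, which extends ubiquitin chains for the anaphase-promoting complex, the 1 of 8 of its list, by -1.02 (limma adjusted p 5.82e-12). Of 10 other spindle and centrosome genes STMN1 and KIFC1 fell, and of 21 G1/S genes CDC6 and RRM2 fell. None of these 4 calls held without the trend, and no gene of either list was called higher in either version.

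**Figure D4:**
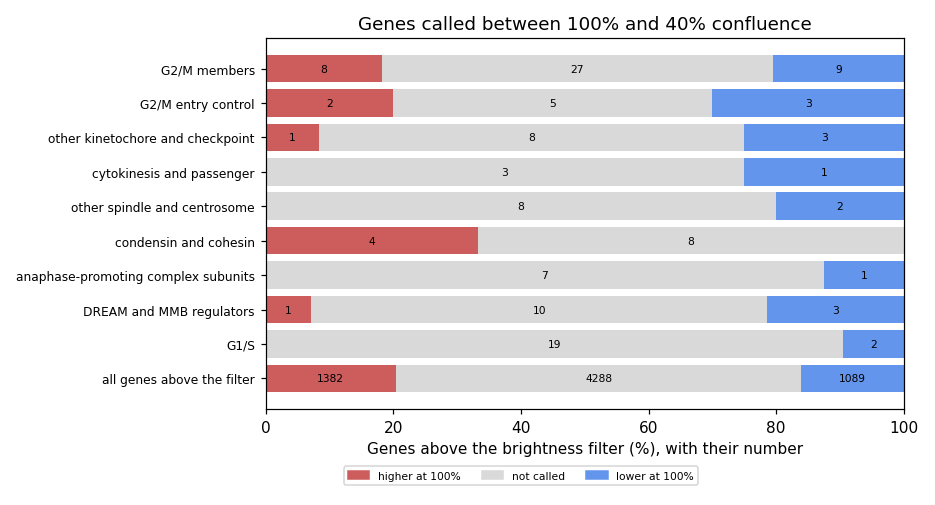
Share (%) of the genes of each list above the brightness filter that were called higher at 100% confluence (red), not called (grey) or lower (blue), with the number of genes in each part. The 44 G2/M members have 8 higher and 9 lower, beside 1382 higher and 1089 lower of all 6759 genes.

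Cells with p73 shRNA were compared with cells with ns shRNA to see which mitotic genes differ when p73 is targeted. None of the 44 genes was called in limma's additive model (adjusted p below 0.05), which called 2.72% of all genes. At an unadjusted p below 0.05 limma gave 4 of the 44 (NCAPH, KIF14, CDC25B and PTTG1), against 13.6% of all genes. The medians were 0.02 at 100% confluence and -0.03 at 40%, against -0.00 over all genes at either stage. A change below the reach of 4 arrays is not shown to be absent.

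The gene nearest the threshold was NCAPH, a subunit of the condensin complex that compacts chromosomes. It had 836 (p73 shRNA) against 1189 (ns shRNA) at 100% confluence and 949 (p73 shRNA) against 1312 (ns shRNA) at 40%. Both p73 shRNA arrays lay below both ns shRNA arrays, with log2 ratios of -0.50 and -0.46 at these stages and an average of -0.48 (SE 0.16, limma adjusted p 0.0772). NCAPH was measured by 1 probe set. The other condensin member, NCAPG, had 2371 (p73 shRNA) against 2319 (ns shRNA) at 100% and 1690 (p73 shRNA) against 2182 (ns shRNA) at 40%.

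The next lowest by average were HMMR (-0.27), KIF11 (-0.24) and MAD2L1 (-0.21). HMMR had 2927 (p73 shRNA) against 2954 (ns shRNA) at 100% and 2239 (p73 shRNA) against 3252 (ns shRNA) at 40%, so the arrays of confluent cells were close and those at 40% apart. Its other probe set did not show this, with 1639 (p73 shRNA) against 1538 (ns shRNA) at 40% and an average of 0.06. MAD2L1 had the same form, with a ratio of 0.16 at 100% and -0.59 at 40%. The highest by average were KIF14 (0.37), CDC25B (0.35), CDC25C (0.30) and PTTG1 (0.27). KIF14, a kinesin of the midbody, had 1757 (p73 shRNA) against 1668 (ns shRNA) at 100% and 2032 (p73 shRNA) against 1280 (ns shRNA) at 40%. Here too the arrays at 40% were further apart than those at 100%.

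This held for most members: 33 of the 44 had the larger ratio, in size, at 40% (75%, against 64.2% of all genes). The median size of the log2 ratio was 0.08 at 100% and 0.22 at 40% over the 44 genes, against 0.15 and 0.24 over all genes. The standard deviation over the 44 genes was 0.14 at 100% and 0.33 at 40%, against 0.28 and 0.39 over all genes, and 0.23 and 0.34 over the 4315 genes at least as bright as the dimmest member. Each stage has 1 array per hairpin, so the spread between cultures is part of these values, and both arrays at 40% had a higher 99th percentile of intensity than those at 100%. The part of the array differences in these ratios was not tested. The ratios had the same sign at both stages for 29 of the 44 genes (65.9%, against 58.5% of all genes). Across the 44 genes the confluence ratios with p73 shRNA and with ns shRNA, which share no array, correlated with r = 0.62, against 0.77 across all genes.

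**Figure D5:**
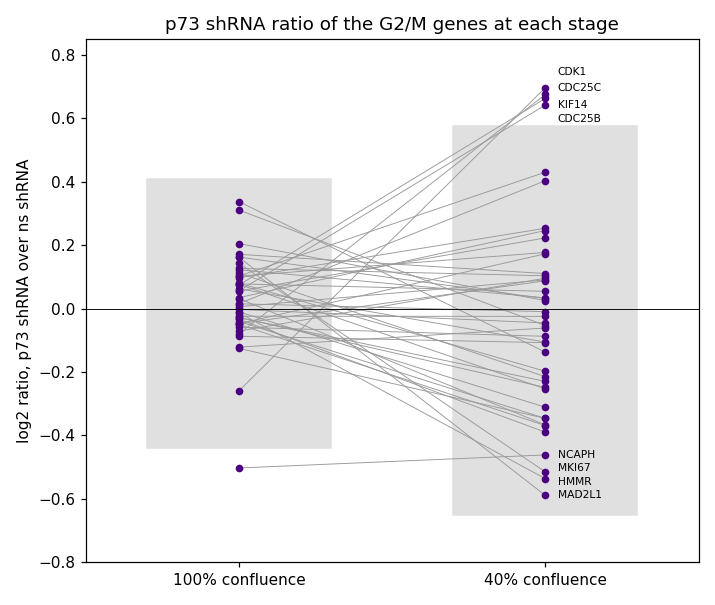
log2 ratio of p73 shRNA over ns shRNA at 100% and at 40% confluence; each point is 1 of the 44 genes, lines join the same gene, and the grey boxes span the 5th to 95th percentile of all genes above the filter. The 44 genes run from -0.50 to 0.34 at 100% and from -0.59 to 0.70 at 40%.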

How the data were processed

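Per the labels' protocols, trizol was used for total RNA, the label was biotin and labelling followed Affymetrix's standard procedure. The authors deposited 1 linear intensity per probe set and array; no source used here names the summarising software. Trimmed means were alike in all arrays, so the scaling was kept, and a shift common to most genes would be lost. Of 22277 probe sets, 62 controls were left out; 19064 had 1 gene symbol, 1043 several and 2108 were unlisted, and 19052 got a current symbol through their Entrez ID. Those with several genes, such as one of CENPA, were not used.

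Values were taken as log2(intensity + 11.5), the 20th percentile, which understates changes of dim genes. The brightest probe set stood for a gene, kept at the median of all probe sets (log2 6.94, intensity 111), which left 6759 of 11963 genes. limma 3.58.1 in R 4.3.3 fitted confluence and hairpin with an intensity trend and two-sided tests. The model has 1 residual degree of freedom and the trend gave infinite prior degrees of freedom, so p-values treat the spread at a given brightness as known; without the trend prior degrees of freedom were 15.8. Whether cultures were separate is not labelled, and the p-values then cover the spread among 4 arrays alone, which may be technical. The model was run on simulated data with equal noise for all genes and no interaction, which cannot check its error on these arrays. Interactions have no test.

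The members, lists and naming rule were chosen with earlier results of these data known. The rule names all members, with array values for the furthest of each role, and the 4 highest and 4 lowest by p73 ratio; others given in full were chosen after their values were seen, as was the comparison with equally bright genes. Promoters came from RefSeq, first listed start per gene. Alternatives are in the closing section. Figures used matplotlib 3.10.9.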

Additional observations from a re-analysis of the deposited data

Results flagged for a closer look

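For 10 of the 44 genes the log2 confluence ratio had opposite signs with p73 shRNA and with ns shRNA. The signs were the same for 77.3% of the 44 genes and for 76.2% of all genes, so this count is near the background. With 1 array per group this difference was not tested. The difference, p73 shRNA minus ns shRNA, was 0.75 for MAD2L1, 0.66 for MKI67, 0.52 for HMMR, 0.33 for CENPE, 0.33 for CCNB2 and 0.22 for CDKN3. It was -0.96 for CDK1, -0.59 for KIF14, -0.59 for CDC25B and -0.33 for PTTG1. Of these genes CDK1 alone was called with confluence. The other 3 probe sets of MKI67 and the other one of HMMR had ratios above 0 with both hairpins. The other probe sets of CDK1 each had the same sign with both hairpins. One had -0.17 (p73 shRNA) and -0.07 (ns shRNA), the other 0.27 (p73 shRNA) and 0.10 (ns shRNA).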

How the results depend on the processing

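With confluence, limma called 17 of the 44 genes, 8 higher and 9 lower, and 36.6% of all genes. With each probe set as a feature (35.3% of all probe sets called), or the 5th or 40th percentile as pseudocount (36.5% and 36.8% of all genes), these counts were the same. Quantile normalization gave 6 higher and 9 lower (33.5% of all genes called), and a filter at the 70th percentile 8 and 10 (40%). The mean of probe sets gave 5 and 8 (43 genes, without CDC25C, and 32.2%). No intensity trend gave 2 and 4 (30.6%), no brightness filter 2 and 4 (13%), and no hairpin term 1 and 3 (19.9%). The last 3 settings called 6, 6 and 4 members, beside shares of all genes that also fell. CDC20, KIF23, TPX2 and TOP2A were called in all 9 of these alternatives. Leaving out 1 array at a time without the hairpin term, an alternative chosen after seeing the data, gave 0 to 14 calls (11 without the p73 shRNA array at 40%), 0 to 8 higher and 0 to 7 lower, with medians of -0.0875 to -0.0211 (-0.0318 without the p73 shRNA array at 100%); with the hairpin term 3 arrays leave no residual. The median of the 44 ratios, -0.07, became 0.00826 after quantile normalization, while the median over all genes moved from 0.01 to -0.01. In single genes, PTTG1 turned to 0.11 after quantile normalization and BUB1 to -0.0560 with the mean of probe sets, neither called. With arrays left out, uncalled values turned in sign without the ns shRNA array at 40% for MAD2L1 (0.11), NCAPH (0.0702), CDC25B (-0.19) and KIF14 (-0.25), without the p73 shRNA array at 40% for UBE2C (0.0342), PTTG1 (0.17), CENPE (-0.0872), MKI67 (-0.12), CDKN3 (-0.0879) and HMMR (-0.14), without the ns shRNA array at 100% for PTTG1 (0.00167) and without the p73 shRNA array at 100% for NCAPH (0.0908). The cause was not tested. With p73 shRNA limma called 0 members under all 9 alternatives, with 0 to 4 at an unadjusted p below 0.05. The additive model already compares the stages within each hairpin, so the fit with no hairpin term is the one without that block, and the labels number no replicates that could pair arrays in another way.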
